A study of Mus musculus with 10 samples.

Results

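The cell cycle and DNA replication genes described here are 44 genes listed by function, from the proliferation marker Mki67 to the replicative helicase and the mitotic spindle. A gene was measured when an array probe set (a group of short probes that together read 1 transcript) carried its symbol and no other, and its brightest such probe set was used. Of the 44 genes 43 were measured, out of 18193 genes on the array. The exception was the cyclin gene Ccnb1, for which no probe set carried that symbol alone.

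The values come from whole skin of C3H/HeJ mice, a strain prone to alopecia areata (AA), an autoimmune loss of hair. All 10 mice were young adults free of disease when they received a graft of alopecic skin, which transfers AA to the recipient, and all were sampled at week 12. In 5 mice a pump implanted at grafting released baricitinib, an inhibitor of the Janus kinases JAK1 and JAK2, and in the other 5 vehicle control mice it released placebo. Each mouse gave 1 array of log2 expression values. Replicates are called B1 to B5 for baricitinib and V1 to V5 for vehicle control, after the numbers in the sample titles.

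A dividing cell loads the Mcm helicase on its DNA, copies the DNA in S phase with nucleotides made by ribonucleotide reductase and thymidylate synthase, and separates the copies on the mitotic spindle. Cyclins drive the entry to S phase and to mitosis by activating cyclin-dependent kinases. Most of these genes are transcribed only in the cycling part of a cell population. In skin the fastest division is in the matrix of the growing (anagen) hair follicle, which feeds the hair shaft, with slower division in the basal epidermis and in activated lymphocytes. In whole tissue a lower value can come from fewer cells of a type or from less RNA per cell, and the arrays cannot tell these apart.

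Array quality bears on every value below. V5 correlated with the other arrays at r between 0.697 and 0.729, whereas the other 9 arrays correlated with each other at 0.946 to 0.994. For the housekeeping controls Gapdh and beta-actin, the signal of the 3' end exceeds that of the 5' end by more where RNA is degraded or amplified short. This gap was 0.99 to 1.18 log2 on the baricitinib arrays. It was 3.03, 1.998, 4.35, 1.01 and 4.06 on V1 to V5, so that among vehicle arrays only V4 lay within the baricitinib range. The spiked control transcripts were at 11.21 to 11.43 log2 with baricitinib, at 11.33 to 11.99 on V1 to V4 and at 13.25 on V5. The gap thus nearly divides the groups, and a fit with it as a covariate cannot separate RNA quality from treatment. Such fits are given as alternatives, and the part of RNA quality in the results was not tested. Results are given with all arrays and without V5. The epidermal keratin Krt5 was at 13.04 to 13.67 log2 and Krt14 at 10.91 to 13.15 on the 10 arrays, so the defining keratins of skin were present on each.

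None of the 43 genes passed the corrected test between baricitinib and vehicle, and their values went up and down together from mouse to mouse. Their median was 8.34, 9.09, 8.01, 6.87 and 8.91 log2 on B1 to B5 and 8.78, 8.96, 8.89, 9.26 and 6.99 on V1 to V5. The vehicle arrays V1 to V4 lay close together and near the top of the range. The baricitinib arrays B2 and B5 lay at the same level as those, while B1, B3 and above all B4 lay lower, as did the atypical V5.

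**Figure D1:**
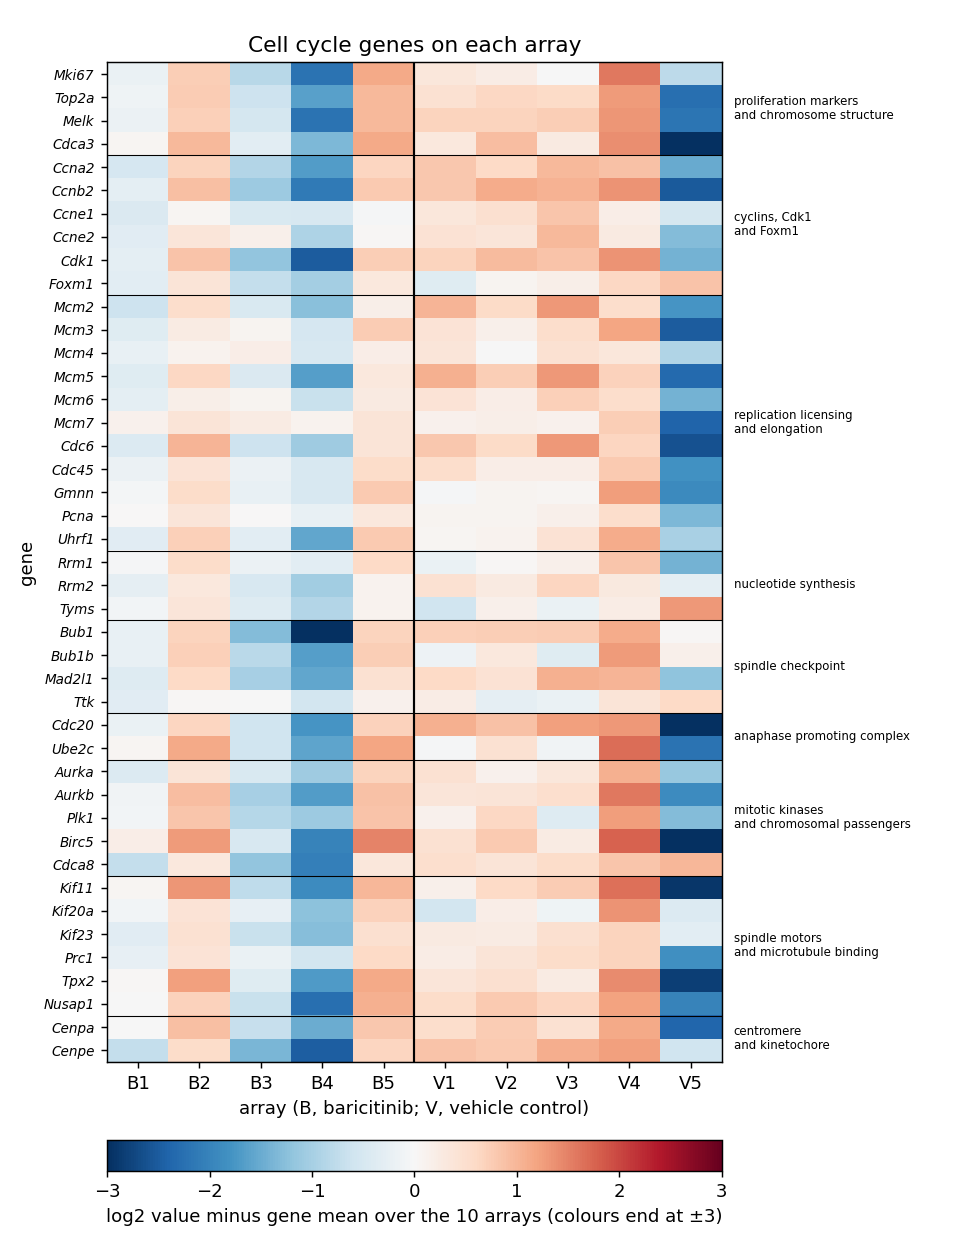
Log2 value of each of the 43 cell cycle genes (rows, ordered by role) on each array (columns) minus the mean of that gene over the 10 arrays, with blue below and red above the mean. B4 is the lowest of the baricitinib columns in all 43 rows, B2 and B5 are the highest pair of them in 41, and V5 is the lowest vehicle array in 37.

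The order of the baricitinib arrays was shared more widely than among all genes. B4 was the lowest baricitinib array for 43 of 43 genes, against 20.5% of the 18193 genes. B2 and B5 were the highest pair for 41 of 43, against 13.7%. The full order of B4 lowest, then B3, then B1 held for 32 of 43, against 4.48% of all genes. B5 was the highest for 25 genes and B2 for 18. Among V1 to V4, V4 was highest for 33 of the 43 genes, against 28.5% of all genes, and V3 for the other 10.

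The genes also share promoter words that were not used to choose them. RefSeq (assembly GRCm38.p6) gave at least 1 window of 300 bases, from 250 before to 50 after a start site, for 35 of the 43. A gene with more windows was counted once, if any of them held the word. Genes expressed in mitosis are known for a pairing of CCAAT boxes, bound by NF-Y, with the cell cycle genes homology region (CHR), bound by the MuvB complex. Genes expressed at the entry to S phase are known for E2F sites. The CHR word TTTGAA, searched on both strands, was found for 18 of 35 genes (51.4%), against 20.2% of all 27025 genes with such windows. All 18 also held CCAAT on either strand in the same window, a combination found for 7.97% of the 27025 genes. CCAAT alone was in 28 of 35 (80.0% against 41.1%). At least 1 of the E2F words TTTCCCGC, TTTGGCGC, TTTCGCGC and TTTGCCGC was in 7 of 35 (20.0% against 2.61%). Of these words CHR and E2F were divided by role and CCAAT was not. CHR was in 2 of 12 replication and nucleotide synthesis genes and in 16 of 23 genes of the other roles, and the E2F words in 6 of 12 and 1 of 23 respectively. CCAAT was in 10 of 12 and 18 of 23. A match is a description of the letters and does not show that a factor bound there.

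The promoters of 4 genes that act in G2 and mitosis and 2 that act in replication are shown because they hold these words in both arrangements. They are written 5' to 3' in the direction of the gene, and capitals mark the E2F words and, on either strand, the CCAAT box and the CHR word.
Mki67, minus strand of chr7:135716460-135716579: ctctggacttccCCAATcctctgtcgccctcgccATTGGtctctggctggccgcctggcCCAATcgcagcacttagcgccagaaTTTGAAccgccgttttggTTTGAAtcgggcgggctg
Ccnb2, minus strand of chr9:70421555-70421674: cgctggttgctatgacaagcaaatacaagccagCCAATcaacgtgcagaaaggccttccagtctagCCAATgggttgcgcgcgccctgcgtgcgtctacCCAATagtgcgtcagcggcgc
Cdk1, minus strand of chr10:69352913-69353052: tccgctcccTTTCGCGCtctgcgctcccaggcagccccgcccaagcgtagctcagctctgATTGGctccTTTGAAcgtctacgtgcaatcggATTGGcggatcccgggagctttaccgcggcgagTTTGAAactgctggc
Ube2c, plus strand of chr2:164769809-164769928: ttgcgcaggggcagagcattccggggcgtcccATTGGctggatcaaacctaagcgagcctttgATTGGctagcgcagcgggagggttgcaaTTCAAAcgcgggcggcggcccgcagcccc
Mcm5, plus strand of chr8:75109349-75109508: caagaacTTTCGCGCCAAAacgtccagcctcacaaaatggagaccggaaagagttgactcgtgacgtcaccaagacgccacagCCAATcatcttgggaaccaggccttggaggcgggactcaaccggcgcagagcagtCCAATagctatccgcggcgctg
Mcm6, minus strand of chr1:128359706-128359825: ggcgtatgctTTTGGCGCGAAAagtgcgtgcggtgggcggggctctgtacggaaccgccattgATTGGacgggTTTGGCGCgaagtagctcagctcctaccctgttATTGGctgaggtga
Mki67 and Ube2c carry CHR downstream of their CCAAT boxes, and in Cdk1 the 2 words alternate. In Ccnb2 the stretch shown holds 3 CCAAT boxes, and its TTTGAA words, at -167 and at 5 from the start site, lie outside the stretch. Mcm5 and Mcm6 carry E2F words, which on the 2 strands overlap each other in the longest capital runs, and no TTTGAA. Cdk1 was the only gene outside the replication and nucleotide synthesis roles with an E2F word.

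Among the proliferation markers, Mki67, which encodes the Ki-67 protein of dividing cells, was at 9.79, 10.73, 9.15, 7.76 and 11.13 log2 on B1 to B5 and at 10.32, 10.21, 9.97, 11.58 and 9.21 on V1 to V5. B2 and B5 were above V1 to V3, B4 was below every vehicle array, and the groups overlapped. The means were 9.71 ± 1.34 with baricitinib and 10.26 ± 0.86 with vehicle (SD, n = 5 each), a difference of -0.54 ± 0.64 log2 (SE, limma, adjusted p = 0.617). Top2a, the topoisomerase that untangles replicated DNA, Melk, a mitotic kinase, and Cdca3, which promotes entry to mitosis, had the same order of baricitinib arrays. Their differences were -0.26, -0.49 and 0.20 log2.

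The cyclins, Cdk1 and Foxm1 include the S phase cyclins E and A and the mitotic cyclin B. Ccne1, the cyclin that starts S phase with Cdk2, was at 7.38, 7.88, 7.35, 7.33 and 7.79 log2 on B1 to B5 and at 8.17, 8.30, 8.65, 8.03 and 7.30 on V1 to V5. All 5 baricitinib arrays were below V1 to V4, and only V5 overlapped them. The difference was -0.54 ± 0.25 log2 (SE, limma, adjusted p = 0.347) with all arrays. Without V5 it was -0.74 ± 0.17 (adjusted p = 0.0738), the lowest adjusted p of the 43 genes in that comparison. Ccnb2, Cdk1, Ccna2 and Ccne2 differed by -0.71, -0.95, -0.71 and -0.30 log2 with all arrays. Foxm1, a transcription factor of G2 and mitosis genes, differed by -0.55 and was one of 4 genes, with Tyms, Ttk and Cdca8, whose highest value of the 10 arrays was on V5. For Foxm1 this depended on the probe set. On its next brightest probe sets V5 was the lowest vehicle array, at 6.71 and 4.01 log2.

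In the replication machinery, the helicase subunit Mcm2 was at 7.85, 9.005, 8.02, 7.23 and 8.66 log2 on B1 to B5 and at 9.49, 9.05, 9.79, 9.004 and 6.71 on V1 to V5. Every baricitinib array was level with or below V1 to V4, and V5 was the lowest array. The difference was -0.66 log2 with all arrays (limma, adjusted p = 0.515) and -1.18 without V5 (adjusted p = 0.0891). Pcna, the clamp that holds DNA polymerase on its template, was at 11.66, 12.01, 11.66, 11.43 and 11.96 log2 with baricitinib and at 11.74, 11.73, 11.79, 12.17 and 10.30 with vehicle. B1, B3 and B4 were below V1 to V4, B2 and B5 were above V1 to V3, and V5 was the lowest array. The difference of Pcna was 0.20 log2 with all arrays and -0.11 without V5.

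On the probe sets used, not all subunits of one machine had the same size of difference. Without V5 the Mcm helicase genes differed by -1.18 (Mcm2), -0.53 (Mcm3), -0.33 (Mcm4), -1.26 (Mcm5), -0.56 (Mcm6) and -0.04 log2 (Mcm7). Dimmer probe sets of the same genes gave -0.25 for Mcm2, -0.48 and -0.64 for Mcm5, and -0.24, 0.29 and 0.38 for Mcm7. The contrast between subunits therefore depends on the probe set read. Mcm7 was at 10.70, 10.96, 10.82, 10.68 and 10.96 log2 on B1 to B5 and at 10.71, 10.74, 10.69, 11.30 and 8.18 on V1 to V5, and with all arrays had the highest difference of the 43 genes at 0.50 log2. Gmnn, which blocks a second round of Mcm loading, was at 8.84, 9.46, 8.68, 8.42 and 9.69 log2 with baricitinib and at 8.88, 8.99, 8.97, 10.16 and 6.99 with vehicle. Gmnn differed by 0.22 log2 with all arrays and by -0.23 without V5, and with cyclic loess normalisation of all arrays its difference was -0.088. The loading factor Cdc6 and the helicase cofactor Cdc45 differed without V5 by -0.97 and -0.41 log2, and Uhrf1, which carries DNA methylation through replication, by -0.57.

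Of the nucleotide synthesis genes, Rrm2, the small subunit of ribonucleotide reductase, was at 11.16, 11.74, 10.95, 10.38 and 11.53 log2 on B1 to B5 and at 11.88, 11.71, 12.06, 11.72 and 11.12 on V1 to V5. Its difference was -0.54 log2 (limma, adjusted p = 0.371), and -0.69 without V5. Rrm1, the large subunit of the same enzyme, was at 8.87, 9.46, 8.75, 8.60 and 9.51 log2 with baricitinib and at 8.71, 8.94, 9.05, 9.73 and 7.505 with vehicle. Its groups overlapped widely, with a difference of 0.25 log2 with all arrays, of -0.07 without V5 and of -0.058 with cyclic loess normalisation. Tyms, thymidylate synthase, was dim (4.20 to 6.36 log2) and differed by -0.35 and -0.07.

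The spindle checkpoint gene Bub1, whose kinase delays anaphase until chromosomes are attached, was at 7.49, 8.38, 6.42, 4.56 and 8.40 log2 on B1 to B5 and at 8.44, 8.46, 8.48, 8.85 and 7.76 on V1 to V5. Its vehicle arrays V1 to V4 lay within 0.41 log2, while B2 was 14.2-fold above B4. The difference was -1.35 ± 0.67 log2 (SE, limma, adjusted p = 0.365), one of the 3 lowest of the 43 genes. Bub1b, Mad2l1 and Ttk, which act in the same checkpoint, differed by -0.49, -0.76 and -0.30 log2.

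Cdc20, the activator of the anaphase promoting complex, was at 8.34, 9.19, 7.94, 6.77 and 9.25 log2 on B1 to B5 and at 9.61, 9.42, 9.78, 9.85 and 5.34 on V1 to V5. All baricitinib arrays were below V1 to V4, and V5 was the lowest array of all. Its difference was therefore -0.50 log2 with V5 and -1.37 without. Ube2c, the ubiquitin-conjugating enzyme of the same complex, differed by 0.08 and -0.46 log2.

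Among the mitotic kinases and chromosomal passengers, Cdca8, which encodes borealin of the passenger complex, was at 9.62, 10.65, 9.15, 8.28 and 10.66 log2 on B1 to B5 and at 10.82, 10.72, 10.87, 11.16 and 11.33 on V1 to V5. It was the only one of the 43 genes whose groups did not overlap with all arrays, although B2 and B5 came close to V2. The difference was -1.31 ± 0.43 log2 (SE, limma, adjusted p = 0.253), the lowest adjusted p of the 43. Its other 2 probe sets, which were dimmer, gave -0.40 and 0.23 log2. On both of these V5 was the lowest of the 10 arrays (4.78 and 5.64 log2), and the groups overlapped. The partners of Cdca8 in the passenger complex, Birc5 and Aurkb, differed by 0.19 and -0.39 log2, and the kinases Aurka and Plk1 by -0.35 and -0.13.

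Of the spindle motors and microtubule binding proteins, Kif23, the motor of the central spindle in cytokinesis, was at 7.9985, 8.80, 7.66, 7.05 and 8.83 log2 on B1 to B5 and at 8.60, 8.59, 8.82, 8.996 and 8.01 on V1 to V5. B2 and B5 were level with V1 to V4, and the difference was -0.54 log2 (limma, adjusted p = 0.446). The other 5, namely Kif11, Kif20a, Prc1, Tpx2 and Nusap1, differed by -0.10, -0.19, 0.01, 0.13 and -0.47 log2. Cenpe, the kinetochore motor that aligns chromosomes, was at 6.98, 8.24, 6.32, 5.22 and 8.33 log2 with baricitinib and at 8.56, 8.47, 8.78, 8.93 and 7.10 with vehicle. Its baricitinib arrays were all below V1 to V4, with a difference of -1.35 ± 0.61 log2 (SE, limma, adjusted p = 0.339) and of -1.66 without V5. Cenpa, the histone variant of centromeres, differed by -0.20 and -0.81 log2.

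**Figure D2:**
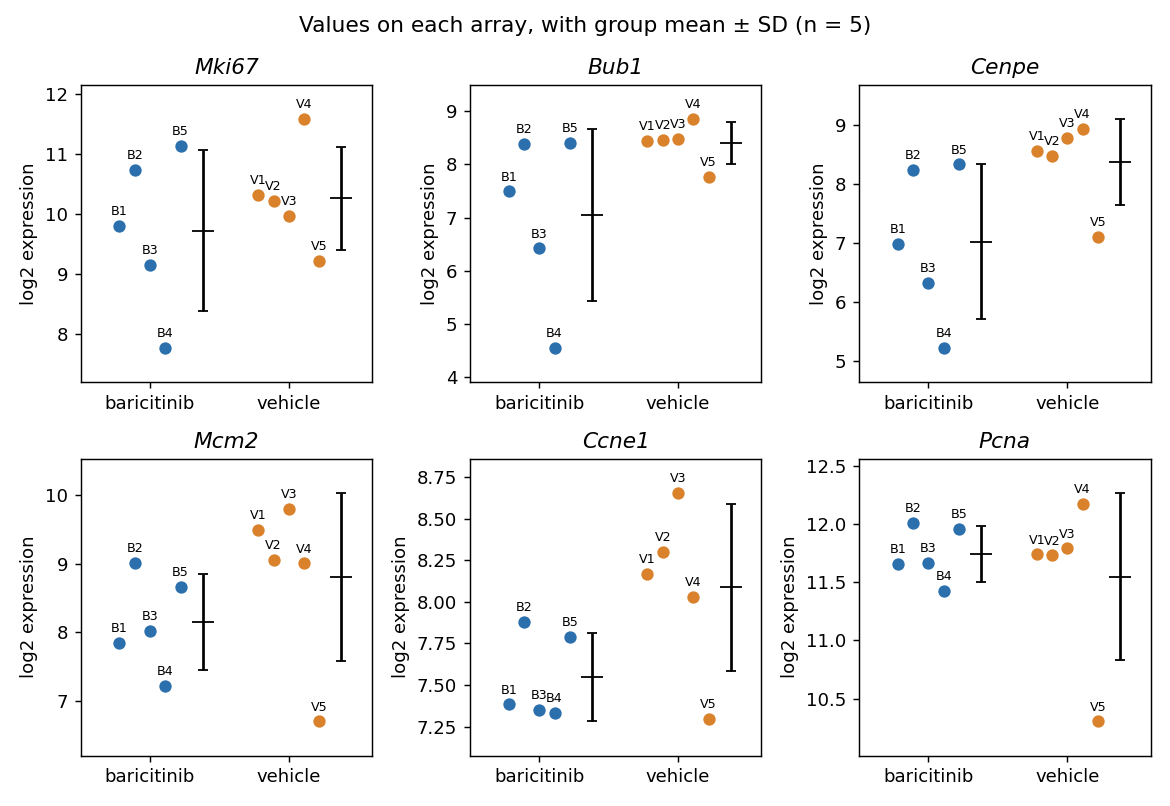
Log2 expression of 6 cell cycle genes on each array, labelled by replicate, with the group mean and SD (n = 5) as a bar beside the points. B2 and B5 reach or come near the vehicle arrays V1 to V4 for each gene, B4 is the lowest baricitinib array, and V5 lies below V1 to V4.

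In the comparison of all arrays, 0 of 45037 probe sets passed an adjusted p of 0.05 by limma (6680, or 14.8%, had an unadjusted p under 0.05), so that 0 of the 43 genes did (adjusted p from 0.253 to 0.992). At an unadjusted p under 0.05, 1 of the 43 genes was lower with baricitinib, Cdca8, against 5.62% of probe sets, and 0 were higher, against 9.21%. Cdca8 was also the only gene without overlap, against 2.03% of probe sets lower and 3.09% higher. The median difference of the 43 genes was -0.30 log2, with 32 negative (74.4%), against 0.01 log2 and 49.7% negative over all genes. Without B4 the median was -0.04 log2. With the RNA quality gap as covariate, which is confounded with group on all vehicle arrays but V4, it was -1.16. The p-values measure the spread between these 10 mice.

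Without V5 all 43 differences were negative, against 57.2% of all genes, and their median was -0.68 log2, against -0.06 over all genes. Again 0 of 45037 probe sets passed the adjusted threshold by limma (12559, or 27.9%, had an unadjusted p under 0.05). At an unadjusted p under 0.05, 14 of the 43 genes were lower (background 13.5%) and 0 higher (14.4%). These 14 were Ccne1, Ccne2, Ccna2, Ccnb2, Cdk1, Mcm2, Mcm5, Mcm6, Cdc6, Rrm2, Mad2l1, Cdc20, Cenpe and Cdca8. The groups did not overlap for 6 genes, all lower with baricitinib (background 4.11% lower and 4.42% higher), namely Ccne1, Mcm5, Bub1, Cdc20, Cdca8 and Cenpe. This held on the brightest probe set only. All 6 genes had further, dimmer probe sets, and on each of those the groups overlapped without V5. For Ccne1, for example, B5 was at 7.31 and V1 at 7.28 log2. With V4 left out as well, as a choice made after the data were seen, 2 genes passed among 25% of all probe sets. These were Ccne1 (-0.83 log2, limma, adjusted p = 0.0141) and Mcm2 (-1.29, adjusted p = 0.0395), and the 3 vehicle arrays then left, V1 to V3, have RNA quality gaps outside the baricitinib range.

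**Figure D3:**
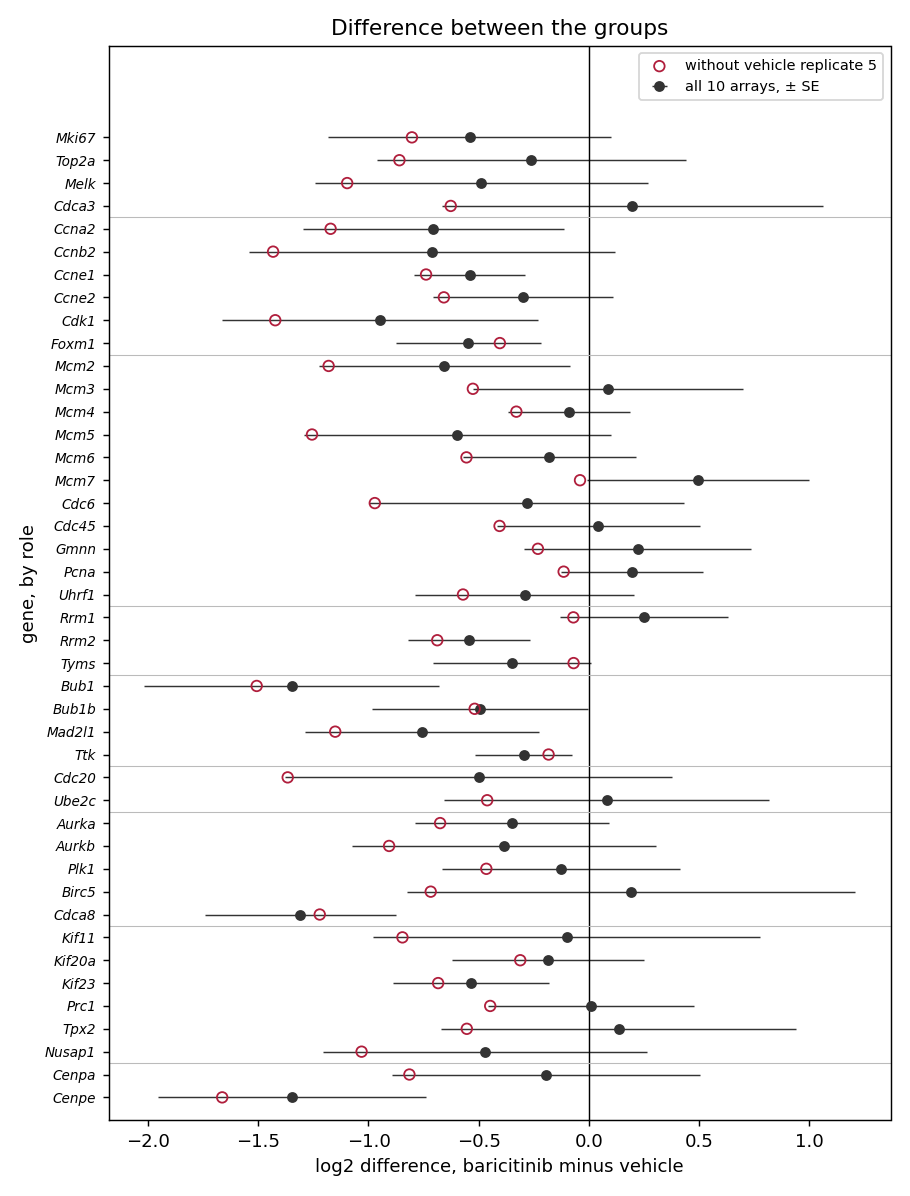
Log2 difference between baricitinib and vehicle for each of the 43 genes, grouped by role, with all 10 arrays (filled, with SE) and without V5 (open). The open points all lie below 0, down to -1.66 for Cenpe, while 11 filled points lie above 0.

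The same genes read by other probe sets did not all give the same difference. Of the 43 genes 30 had further probe sets, 53 in all, and without V5 44 of the 53 were lower with baricitinib. For 7 of the 30 genes, Mcm3, Mcm6, Mcm7, Rrm1, Tyms, Ttk and Kif23, at least 1 further probe set was higher. B4 was the lowest baricitinib array for 38 of the 53.

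The range of values within the baricitinib group was wide for these genes. The range over B1 to B5 had a median of 2.16 log2 for the 43 genes, against 0.51 for all genes. Over V1 to V4 it was 0.69 against 0.60. The range was wider over the baricitinib arrays than over V1 to V4 for 39 of 43 genes, against 45.5% of all genes, and it was over 2 log2 for 23, against 5.75%. With 4 arrays in each group, leaving out each baricitinib array in turn, it was wider for 32 to 39 of the 43. Without B4 it was wider for 32 (40.4% of all genes) and over 2 log2 for 3 (4.86%), and the median range was 1.31 log2. It reached 3.84 log2 for Bub1 and was smallest, at 0.29, for Mcm7. The difference in spread was not tested.

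The range also differed between roles. Its median was 2.91 log2 for the proliferation markers, 2.75 for the centromere genes, 2.62 for the anaphase promoting complex, 2.42 for the spindle motors, 2.38 for the mitotic kinases and passengers and 2.27 for the spindle checkpoint. It was 1.88 for the cyclin group, 1.27 for replication and 1.23 for nucleotide synthesis. Mki67 was 7.84-fold and Pcna 1.5-fold higher on B2 than on B4. Over the 19 mitosis genes the median range was 2.39 log2 and over the 14 replication and nucleotide synthesis genes 1.25. The vehicle arrays showed another contrast between the same roles, with V4 the highest of V1 to V4 for 18 of 19 mitosis genes and for 8 of 14 replication and nucleotide synthesis genes. V3 was highest for the remaining genes of both sets. The wider lists described below did not show this contrast. There V4 was the highest of V1 to V4 for 16 of 31 other mitosis genes and for 12 of 24 other replication genes.

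**Figure D4:**
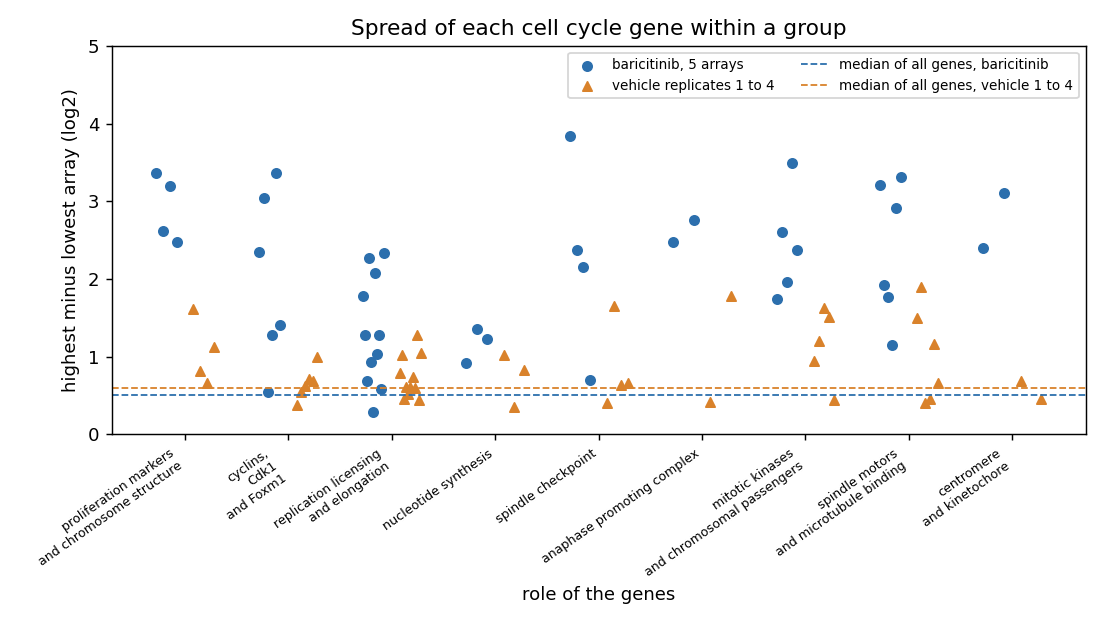
Highest minus lowest array (log2) of each gene over the 5 baricitinib arrays (circles) and over V1 to V4 (triangles), by role, with dashed lines at the median range of all genes. The circles reach 3.84 for Bub1 and lie above both dashed lines for all genes but Ccne1, Mcm7 and Pcna, while the replication and nucleotide synthesis genes reach at most 2.33.

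Array by array, the cell cycle genes were set against Krt31, a keratin of the hair shaft cortex, and Cd8a, a coreceptor chain of cytotoxic T cells. Krt31 was at 12.63, 12.89, 7.55, 9.55 and 11.69 log2 on B1 to B5 and at 10.68, 11.51, 10.88, 12.19 and 7.40 on V1 to V5. It was lowest on V5, B3 and B4, which also had the 3 lowest medians of the 43 genes, although B4 had a lower median than B3 and a higher Krt31. B1 had a higher Krt31 than V1 to V4 but a lower median than any of them. Cd8a was at 4.22, 4.93, 4.67, 4.56 and 10.02 log2 on B1 to B5 and at 10.65, 11.03, 10.72, 10.17 and 4.81 on V1 to V5, which put B5 with V1 to V4 and V5 with B1 to B4.

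All 10 arrays together gave a positive relation of Mki67 and Pcna with Krt31. For Mki67 Pearson's r was 0.66 (permutation p = 0.0494) and Spearman's rho 0.67 (permutation p = 0.0376). For Pcna r was 0.73 (permutation p = 0.0150) and rho 0.66 (permutation p = 0.0436). All 4 permutation p-values were 0.0494 after adjustment over the 4 tests only. In the limma fit on Krt31, adjusted over all probe sets, neither gene passed (adjusted p = 0.195 for Mki67 and 0.185 for Pcna). Without B3 and V5, the 2 arrays farthest from the median of Krt31, r was 0.70 for Mki67 and 0.67 for Pcna (n = 8), and without V5 alone it was 0.65 and 0.58.

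In the limma fit on Krt31 over all probe sets 352 passed the adjusted threshold, of which 331 (0.735%) followed Krt31 upwards and 21 (0.0466%) downwards. Of the 43 genes 0 passed, with Kif11 at the lowest adjusted p of 0.0723 and a slope of 0.62 log2 per log2 of Krt31. At an unadjusted p under 0.05, 30 of the 43 had a positive slope, against 11.7% of probe sets, and 0 a negative one, against 12.6%. The steepest slope was 0.70, for Birc5, and Ttk and Tyms had slopes of -0.04 and -0.02. The count was 33 with group as a further term (background 12.5%) and 32 with the RNA quality gap (9.69%). Without V5 it was 19 (background 5.18%), with 0 negative (5.9%), and 0 of the 43 genes passed the adjusted threshold (0.544% of probe sets upwards and 0.0355% downwards). Leaving out B3 raised the number that passed to 25 of the 43 genes, in a fit where 37.5% of all probe sets passed. Leaving out B1 raised it to 1, Aurkb, among 0.679% of all probe sets.

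The relation to Cd8a could not be graded, because the arrays fell in 2 separate sets of 5, and no correlation is given. In the limma fit on Cd8a 431 probe sets passed (369, or 0.819%, upwards and 62, or 0.138%, downwards) and 0 of the 43 genes did, with the lowest adjusted p at 0.112 for Ccne1. At an unadjusted p under 0.05, 28 of the 43 had a positive slope (background 7.25%) and 0 a negative one (4.72%). The count was 34 with group as a further term (background 21.1%) and 37 with the RNA quality gap (14%). Within the 4 arrays B1 to B4 Cd8a varied by only 0.70 log2, while Mki67 varied by 2.97 and Krt31 by 5.34. B2, with Cd8a at 4.93, had a median of the 43 genes of 9.09 log2, level with V1 to V4, in which Cd8a was above 10. Without B2, 3 genes passed on Cd8a, namely Ccna2, Mad2l1 and Cenpe (0.802% of all probe sets did), and without V5 1 did, Ccne1 (3.93%).

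**Figure D5:**
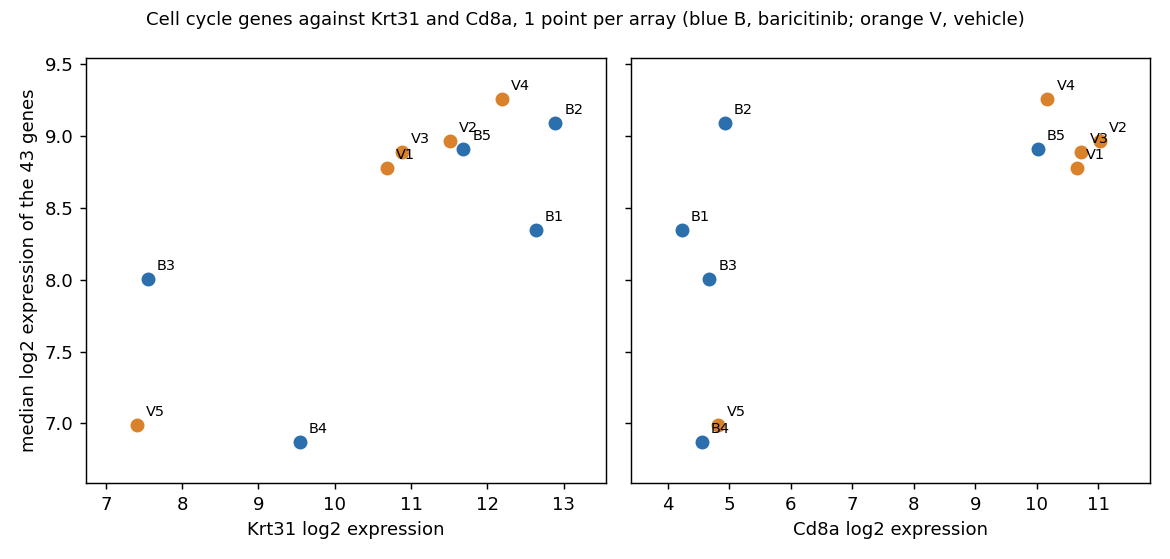
Median log2 expression of the 43 cell cycle genes against Krt31 (left) and Cd8a (right), 1 labelled point per array, blue for baricitinib and orange for vehicle. With Krt31 the points spread along a rising band from V5, B3 and B4 to V4 and B2. B1 lies below it, with Krt31 at 12.63 log2 and a median of 8.34. With Cd8a the points form 2 sets, of which the one with low Cd8a spans medians from 6.87 to 9.09.

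Of the marker lists of cell types in skin, some moved with these differences between arrays and others did not. The 8 measured hair matrix markers (Lef1, Msx2, Hoxc13, Dlx3, Foxn1, Shh, Msx1 and Bambi) had a median of 10.27, 10.84, 7.22, 7.57 and 9.52 log2 on B1 to B5 and of 8.71, 9.24, 8.67, 10.17 and 6.37 on V1 to V5. B3, B4 and V5 were lowest and B2 and V4 the highest of their groups, as for the cell cycle genes. But B3 stood below B4 and B1 above B5. B4 was the lowest baricitinib array for only 3 of the 8 genes (20.5% of all genes). For the 8 measured hair shaft markers the medians were 7.14 log2 on B3 and 9.44 on B4, with B4 lowest for 0. Shh, made by matrix cells at the start of hair growth, was at 8.15, 9.23, 3.81, 5.01 and 9.28 log2 with baricitinib and at 8.12, 8.70, 7.60, 9.52 and 4.99 with vehicle. Of the matrix markers, B5 was above B1 for Shh, Lef1 and Msx1, and below it for Msx2, Hoxc13, Dlx3, Foxn1 and Bambi. The T cell markers, of which 8 of 10 were measured, had medians of 5.65 to 6.78 log2 on B1 to B4, 8.92 on B5, 8.61 to 9.41 on V1 to V4 and 5.82 on V5. With all arrays 7 of the 8 differed by less than 0. The exception, Cd3g, was at 7.55 to 9.95 log2 on B1 to B4 and at 9.06 to 10.06 on V1 to V4. The basal keratinocyte markers had medians of 12.52 to 12.80 log2 on the baricitinib arrays. Their medians were 11.61 to 11.89 on V1 to V4 and 10.91 on V5, and did not follow the cell cycle genes within the baricitinib group. There Krt15, Itgb4 and Col17a1 ran the other way, highest on B4 and lowest on B2. Krt5 and Krt14 varied less in that group, by 0.12 and 0.40 log2. Both were lowest on B4 but almost level with B3, at 13.04 on both arrays for Krt5 and at 12.67 and 12.69 for Krt14. The stress keratins of wounded or inflamed epidermis had medians of 10.21 to 12.61 log2 with baricitinib and of 12.05 to 12.83 on V1 to V4. The fibroblast markers were lowest on B4 within the baricitinib group for 5 of 5 genes, with medians of 11.997 to 12.59 log2 over B1 to B5 and 11.98 to 12.51 on V1 to V4. With all arrays 4 of 4 measured B and plasma cell markers were lower at an unadjusted p under 0.05 (background 5.62% lower and 9.21% higher), and 3 of 3 adipocyte and 4 of 5 skeletal muscle markers were higher. The median differences of these 3 lists were -1.19, 1.63 and 0.92 log2. The part of any cell type in the cell cycle result was not tested.

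A wider list of cell cycle genes, drawn up by role, showed where the pattern extended. Of 101 genes 97 were measured and 0 passed the adjusted threshold (limma). At an unadjusted p under 0.05, 13 of 97 were lower and 5 higher with baricitinib (background 5.62% and 9.21%), and without V5 39 were lower and 5 higher (13.5% and 14.4%). The median difference was -0.22 log2, and -0.59 without V5, and B4 was the lowest baricitinib array for 70 of 97.

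The 31 other mitosis genes had a median difference of -0.65 log2, and of -1.05 without V5, with 28 and 30 of 31 negative. At an unadjusted p under 0.05, 6 of 31 were lower and 1 higher (background 5.62% and 9.21%), and without V5 18 were lower and 1 higher (13.5% and 14.4%). Aspm, which organises the spindle poles, was at 7.72, 8.73, 7.73, 5.86 and 8.74 log2 on B1 to B5 and at 9.57, 8.95, 9.54, 9.12 and 9.17 on V1 to V5, without overlap (-1.51 log2, limma, adjusted p = 0.249). Incenp, the scaffold of the passenger complex, was at 10.09, 11.09, 9.84, 9.41 and 10.79 log2 with baricitinib and at 11.69, 11.56, 11.89, 10.95 and 10.71 with vehicle, a difference of -1.12 log2. Here again B4 was the lowest array and B2 and B5 the highest with baricitinib.

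The 24 other replication genes had a median difference of -0.06 log2, and of -0.57 without V5. Pold1, the catalytic subunit of DNA polymerase delta, differed by -0.93 log2 (limma, adjusted p = 0.230) and Prim1, the primase, by -0.65 (adjusted p = 0.231). Of the S phase checkpoint and recombination genes 9 were measured, with a median of -0.31 log2. Clspn, a mediator of the checkpoint, differed by -1.15 and Wee1, the kinase that holds Cdk1 inactive, by 0.53.

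The lists of regulators of the cycle had median differences above 0 with all arrays. The 12 E2F and MuvB regulators had a median of 0.22 log2, and of -0.30 without V5. Among them 8 of 12 differed by more than 0 with all arrays. Lin54, the DNA-binding subunit of MuvB, differed by -0.54 and Rb1, the retinoblastoma gene, by 0.36. The 9 genes of G1 cyclins and kinases and of Myc had a median of 0.58, and of 0.19 without V5, with Cdk2 at 1.04 and Myc at 0.79. The 12 cell cycle inhibitors had a median of 0.10, and of 0.16 without V5. Of these Cdkn2c differed by 0.93 log2 and Cdkn2a, which was dim (4.17 to 5.74 log2), by -0.68. None of these differences passed the adjusted threshold by limma.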

How the data were processed

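RNA from 10 skin biopsies (5 baricitinib, 5 vehicle control) was amplified with NuGen chemistry, biotinylated and read on Affymetrix mouse arrays. The deposited table holds log2 values, which the authors computed with RMA, whose version is not given in the sources used here. RMA equalises the probe intensities of the arrays before it summarises probe sets, so that a general loss of signal need not show as a lower mean. The SD of the deposited values was 2.28 log2 on V5 and 2.71 to 2.79 on the other arrays. The precision is limited by the number of arrays. In the study 1 vehicle array, unnamed in the labels, was dropped at quality control, so all 10 were kept and each was left out in turn.

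Of 45101 rows 64 controls were set aside. Of the 45037 probe sets tested 34945 carried 1 platform symbol, 932 several and 9160 none, and only the first were named. Of the 18193 symbols 18145 were in the RefSeq gene table. The brightest named probe set (by mean log2 of the 10 arrays) stood for its gene. Groups came from the sample titles. Differences (baricitinib minus vehicle) and slopes on Krt31 and Cd8a were fitted with limma 3.58.1 in R 4.3.3 (lmFit, eBayes, two-sided), with Benjamini-Hochberg adjustment over all probe sets at 0.05. Permutation p-values were two-sided, with 100000 resamples. On simulated data the fit recovered 21% of 100 probe sets changed by 1 log2 and 65% of 100 changed by 2, among 45037. Slopes on Krt31 of 0.5 and 1 were recovered for 56% and 88%.

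The members and gene lists were chosen with earlier results of these data known. Values on every array are given for Mki67, Pcna, Krt31 and Cd8a, for the gene of each role with the largest limma statistic, and for the 3 highest and 3 lowest differences. Of each list of other cell cycle genes the 2 with the largest statistic are named. Mcm5, Shh, the genes of the promoter section and counts of 5 or fewer were named after their values were seen. Alternatives were other normalisations, array weights, RNA quality as a covariate, a replicate block, other eBayes settings, a filter at 5 log2 and the mean of all probe sets of a gene.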

Additional observations from a re-analysis of the deposited data

Results flagged for a closer look

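In 9 of 56 groups of 5 arrays that were examined, 1 array lay far from the other 4 by Dixon's criterion, which chance alone gives in about 1 in 20 groups. In 8 of the 9 the array was V5. The median of the 43 cell cycle genes was 6.99 log2 on V5, against 8.78 on the nearest vehicle array. V5 was also apart from the other vehicle arrays for Pcna (10.30 log2, nearest 11.73), Mcm2 (6.71, nearest 9.004), Cdc20 (5.34, nearest 9.42), Cenpe (7.10, nearest 8.47), Mcm7 (8.18, nearest 10.69) and the checkpoint gene Clspn (6.11, nearest 8.21). Cd8a set V5 apart at 4.81 log2, where the nearest vehicle array was at 10.17. In the baricitinib group B5 was apart for Cd8a at 10.02 log2, with the nearest array at 4.93.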

How the results depend on the processing

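The median difference of the 43 genes was negative under each setting tried. It ranged from -0.68 (without V5) to -0.04 log2 (without B4) when 1 array was left out, and over the other settings from -1.16 (RNA quality as covariate) to -0.28 (mean of all probe sets of a gene). Median centring moved the median of all probe sets to -0.14 log2, beside -0.37 for the 43 genes. With the RNA quality gap as covariate and V5 left out, chosen after the data were seen, the median was -0.97.

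With 1 array left out, the number of probe sets that passed ranged from 0 to 848 (848 without V4, 12 without B5), and 0 of the 43 genes passed. It was 9676 with array weights, which gave V5 a weight of 0.03, and 11278 without V4 and V5. Array weights let 3 of the 43 genes pass (Ccne1, Mcm2 and Mcm5, among 21.5% of all probe sets) and leaving out V4 and V5 2. Genes lower at an unadjusted p under 0.05 numbered 1 to 14 with 1 array left out, 0 with RNA quality, 14 with array weights, 3 with centring, 5 with quantile and 9 with cyclic loess normalisation, 5 with the mean of probe sets and 9 without V4 and V5. Genes without overlap numbered 1 to 6, and 0 with the mean of probe sets. Without V5 these 2 counts were 14 and 6 of 43, beside 13.5% and 4.11% of all probe sets. For the other settings the share of all probe sets is not given, so those counts are not a result about these genes. The cause of these changes was not tested.

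The replicate numbers did not pair the arrays (r of same-numbered deviations from -0.23 to 0.09). With the replicate number as a block the median stayed at -0.30, 0 probe sets passed and 1 of the 43 genes was lower at an unadjusted p under 0.05.

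With 1 array left out, probe sets that passed on Krt31 ranged from 185 to 16896 and of the 43 genes from 0 to 25, both highest without B3, and on Cd8a from 159 to 1770 and from 0 to 3. Quantile normalisation gave 207 on Krt31. Group as a term gave 225 and RNA quality 757 on Cd8a. Of the other cell cycle genes 0 passed with 1 array left out.

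Of 270 differences of named genes with an array left out 7 changed sign. These were 5 without V5, and Krt31 without B1 (-0.12) or B2 (-0.18). The ranges were -0.11 to 0.35 for Pcna, -0.23 to 0.56 for Gmnn, -0.071 to 0.49 for Rrm1, -0.041 to 0.74 for Mcm7 and -0.46 to 1.15 for Krt31, each lowest without V5. Of 216 under other settings 11 changed sign. With RNA quality they were Pcna (-0.35), Gmnn (-0.82), Rrm1 (-0.43), Mcm7 (-0.46), Krt31 (-1.21) and Cdk2 (-0.34), with array weights Pcna (-0.071), Gmnn (-0.11) and Rrm1 (-0.0018), and with cyclic loess Gmnn (-0.088) and Rrm1 (-0.058). With array weights 13 of the named genes passed the threshold.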
